A study of Mus musculus with 6 samples.

Results

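The 31 genes described here encode the enzymes of cholesterol synthesis, the proteins that sense and regulate cellular sterol, and the proteins that take up, move, export or esterify it. They were picked by gene symbol from the 35976 rows of a count table of mouse brown adipose tissue (BAT). All 31 were in the table, and all 31 were among the 14542 genes that passed the expression filter and were tested. By role they comprised 18 synthesis genes, 4 genes of SREBP2 control, 4 of sterol uptake and intracellular transport, 4 of efflux and its LXR regulators, and 1 of esterification.

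The table holds RNA-seq counts for the BAT of 3 sST2-KO mice and 3 wild-type (WT) littermates, all C57BL/6J males 10 weeks old. In the sST2-KO mice CRISPR/Cas9 had removed the Il1rl1 intron that separates exon 8 from exon 9, in every tissue, to take away the soluble receptor form sST2 while leaving the membrane form ST2L. The mice of both groups had undergone surgical denervation of BAT, were kept at 30 °C for 7 days and were then exposed to 10 °C for 8 h. The comparison therefore asked how BAT without sST2 differed from BAT with it when sympathetic input had been removed in both, and no innervated or warm group was part of it.

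Cholesterol is built from acetyl-CoA through the mevalonate pathway, which runs over isopentenyl and farnesyl diphosphate to squalene, closes the ring to lanosterol and then trims lanosterol to cholesterol. When membranes of the endoplasmic reticulum are poor in sterol, SCAP escorts the transcription factor SREBP2 to the Golgi for cleavage, and SREBP2 then raises transcription of the synthesis genes, whereas INSIG proteins hold SCAP back when sterol is plentiful. Oxysterols activate the nuclear receptors LXRα and LXRβ, which raise the transporters that export cholesterol. In BAT, sterol handling runs beside the uptake and burning of lipoprotein lipids in the cold.

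Promoter sequence was taken from RefSeq, in a table of build GRCm38.p6 that gives the bases around the transcript start for 24 of the 31 genes. The table did not give a window for Fdps, Fdft1, Sqle, Scarb1, Npc1, Stard4 or Abcg1. The windows run from 250 bases before to 50 after the start, and each was placed on GRCm39 by exact match. Where a gene had several windows, as did Pmvk, Dhcr7, Insig2, Scap and Nr1h3, only the first was searched. Both strands were searched for a sterol regulatory element (SRE, written TCACNCCAC), the CCAAT box (CCAAT) and the GC box (GGGCGG). The SRE letters occurred in 1 member window, that of Hmgcs1, at position -137 from the start, and in 1.22% of the 27025 windows of all genes. CCAAT occurred in 13 of the 15 synthesis windows (86.7%) and in 18 of the 24 member windows (75%), against 38.3% of the windows of genes tested and 37.9% of all windows. Of the 3 windows of the efflux and LXR genes, none held it. The windows used for Nr1h3, Scap, Soat1, Npc2, Nsdhl and Tm7sf2 lay wholly inside the annotated genes, downstream of their outermost starts. The GC box occurred in 83.3% of the member windows and in 61.4% of those of genes tested. A match of letters is not a measured binding site. The stretches below are from Hmgcs1, the only member window with SRE letters, and from 4 of the 5 members called lower in sST2-KO mice. Nr1h3, the other member called lower, is not shown, and its window held no SRE, CCAAT or GC box letters. The stretches are written in the direction of transcription with the SRE and CCAAT letters of either strand in capitals. Only 30 bases are shown for Lss and Tm7sf2, because another annotated transcript of each gene starts farther upstream. These 30 bases thus lie within the annotated genes. The stretches lie at chr13:120151697-120151856 on the plus strand for Hmgcs1, chr3:89361668-89361757 on the plus strand for Pmvk, chr10:76367359-76367388 on the plus strand for Lss, chr19:6117911-6117940 on the minus strand for Tm7sf2 and chr1:121260401-121260478 on the minus strand for Insig2.
Hmgcs1: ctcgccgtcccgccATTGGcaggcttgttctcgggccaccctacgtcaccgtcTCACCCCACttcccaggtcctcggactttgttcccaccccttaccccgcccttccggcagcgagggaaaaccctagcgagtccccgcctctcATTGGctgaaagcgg
Pmvk: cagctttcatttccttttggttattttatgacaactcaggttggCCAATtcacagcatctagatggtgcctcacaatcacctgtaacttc
Lss: ccacctggtgatgctctgATTGGccgagct
Tm7sf2: cctcccagcgctgATTGGctactgtgctgg
Insig2: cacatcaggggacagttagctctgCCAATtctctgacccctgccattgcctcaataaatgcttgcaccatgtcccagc

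The libraries held 8159442 to 12874809 counts. Levels are given as CPM, the counts scaled to a common library total after TMM normalization, and differences as log2 fold changes of sST2-KO over WT from edgeR's quasi-likelihood test, with their standard errors (SE) and p values adjusted over the 14542 genes tested. Il1rl1 had 1.77, 1.79 and 0.740 CPM in WT 1 to 3 and 3.83, 8.19 and 14.02 CPM in sST2-KO 1 to 3, but a count per gene adds up sST2 and ST2L and so does not check the genotype. The libraries also differed in genes of other cell types. Summed over 8 brown adipocyte markers, WT libraries held 6990 to 13732 CPM and sST2-KO libraries 303 to 1577 CPM, and all 8 markers were called lower. The 8 general adipocyte markers summed to 16479 to 21744 CPM in WT and 5938 to 12117 CPM in sST2-KO libraries, with 1 of the 8 called lower. The 12 macrophage markers summed to 941 to 1280 CPM in WT libraries, 1609 CPM in sST2-KO 1, 1566 CPM in sST2-KO 2 and 6516 CPM in sST2-KO 3, with 2 of the 12 called higher, and none of the 12 was at 0 in any library. Liver genes reached 5991 CPM over 10 genes in WT 2, against 253 and 439 CPM in the other WT libraries and at most 87.7 CPM in sST2-KO libraries. Skeletal muscle genes reached 1355 CPM in WT 1 and 3837 to 16491 CPM in the sST2-KO libraries, against 23.5 and 8.14 CPM in WT 2 and WT 3. In bulk tissue, fewer cells of a type and less RNA per cell cannot be told apart.

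Of the 31 sterol genes, Mvd was called higher in sST2-KO BAT, and 5 were called lower, namely Pmvk, Lss and Tm7sf2 of the synthesis genes, Insig2, which encodes a retention factor of SCAP, and Nr1h3, which encodes LXRα. A call is an adjusted p under 0.05. Over all genes tested, 10.5% were called higher and 9.10% lower. The share of members called lower, 5 of 31, was above this background, and the share called higher, 1 of 31, was below it. With total counts in place of TMM, 2 of 31 were called lower beside 6.13% of all genes, so the share was then near the background. Asking also for a fold change above 2 left Mvd, Pmvk, Lss and Tm7sf2, beside a background of 9.04% higher and 7.10% lower. In 3 members, Mvd, Stard4 and Soat1, every sST2-KO library was above every WT library, and in 7 members, Acat2, Pmvk, Lss, Tm7sf2, Insig2, Scap and Nr1h3, every one was below. Over all genes 21.8% lay wholly above and 19.7% wholly below, so the 7 stood near the background and the 3 below it. The log2 fold change was positive for 9 members and negative for 22, with a median of -0.19 against 0.03 over all genes tested. This split depended on the scaling. With total counts in place of TMM the all-gene median moved to 0.29, and 18 members were positive and 13 negative. An exact permutation test (two-sided) on 1 gene in groups of 3 cannot go below a p of 0.1.

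**Figure D1:**
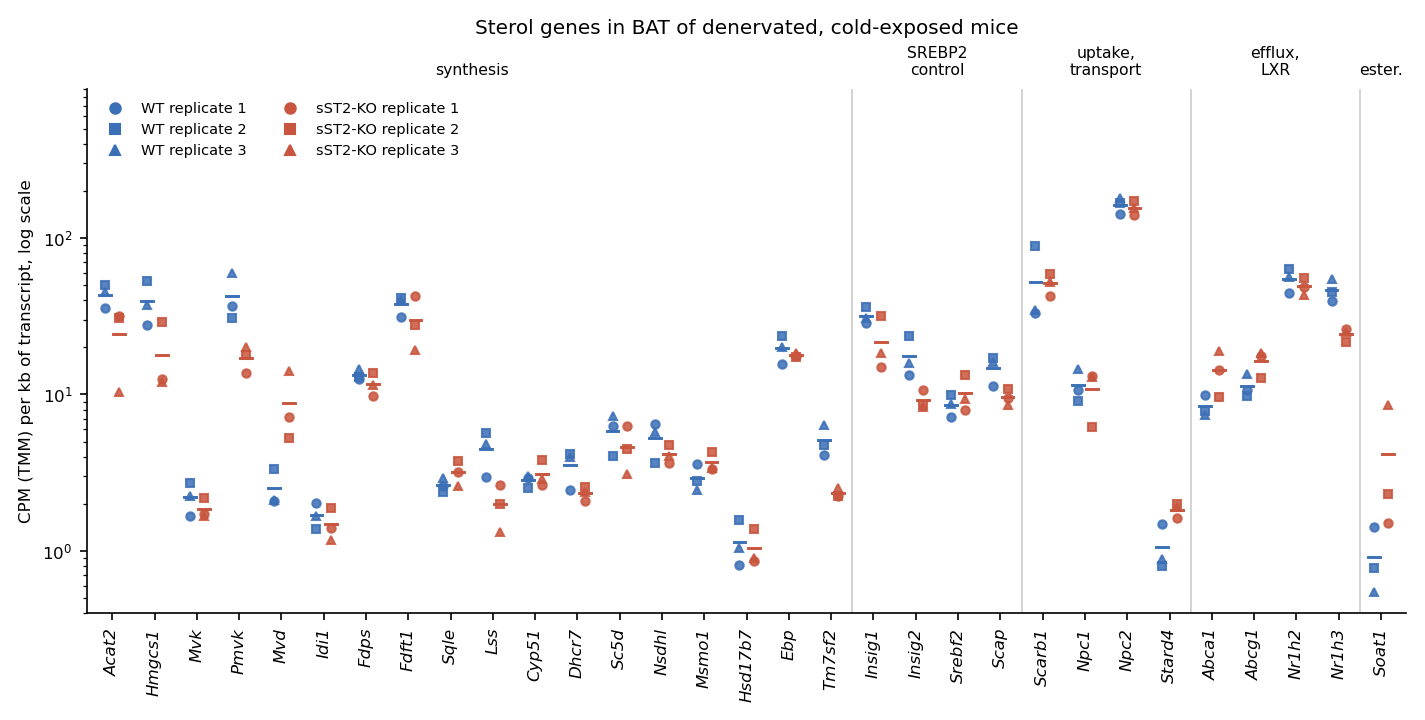
Level of each of the 31 sterol genes in CPM per kilobase of its canonical transcript (log axis), with a point per library and a bar at the mean of the 3 WT and 3 sST2-KO libraries. Npc2 stands highest in both groups, and Soat1, Stard4 and Hsd17b7 stand lowest in WT BAT.

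Per kilobase of transcript, the members spanned levels from below 1 to above 150 CPM. Npc2, which encodes the soluble lysosomal protein that hands cholesterol to the membrane protein NPC1, was highest at 164 ± 19.2 CPM per kb (SD, n = 3) in WT BAT. Nr1h2, which encodes LXRβ, at 54.6 ± 9.46, Scarb1, the lipoprotein receptor gene, at 52.0 ± 31.5, and Nr1h3 at 46.6 ± 7.82 CPM per kb came next and did not differ beyond their spread. At the low end of the WT levels were Soat1 at 0.912 ± 0.451, Stard4 at 1.05 ± 0.369 and Hsd17b7 at 1.14 ± 0.391 CPM per kb. Among the synthesis enzymes, Acat2, Pmvk, Hmgcs1 and Fdft1 lay between 37.7 and 43.5 CPM per kb in WT BAT, and Hsd17b7, Idi1, Mvk, Mvd, Sqle, Cyp51 and Msmo1 lay between 1.14 and 2.94 CPM per kb. The message levels of the enzymes were therefore unequal, with Acat2, Hmgcs1 and Fdft1 making up 59.1% to 67.6% of the summed synthesis CPM in WT libraries and 43.2% to 60.3% in sST2-KO libraries. Fdft1 overlaps Ctsb on the opposite strand. Ctsb had 1626, 2070 and 1869 CPM in WT 1 to 3, against 109, 143 and 140 CPM for Fdft1. Reads shared between them could not be set apart, so the Fdft1 level and these shares carry that limit.

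Among the 18 synthesis genes, 4 log2 fold changes were positive and 14 negative, with a median of -0.29. Of them, 1 was called higher, 3 were called lower and 14 were not called, and the 3 stages of the pathway had medians of -0.25 for the 7 steps to farnesyl diphosphate, -0.34 for the 3 genes of squalene and lanosterol formation and -0.25 for the 8 steps from lanosterol to cholesterol. With total counts the 18 genes split evenly into 9 positive and 9 negative, with a median of -0.025, so the median lay below that of all genes under both scalings. The sign changed for 5 of the 18, Mvk, Idi1, Fdps, Hsd17b7 and Ebp, none of which was called. The 8 brown adipocyte markers fell in the same libraries, and their part in these differences was not tested.

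At the entry to the pathway, Hmgcs1, the cytosolic HMG-CoA synthase gene, had 114, 217 and 153 CPM in WT 1 to 3 and 51.1, 119 and 49.1 CPM in sST2-KO 1 to 3. sST2-KO 2 reached the range of the WT libraries, and the other two lay below it. The log2 fold change was -1.14 (SE 0.41, 95% confidence interval -2.09 to -0.19, adjusted p = 0.0865 by edgeR), and it passed the threshold without sST2-KO 2 (-1.71, adjusted p = 0.0267) and in DESeq2 (adjusted p = 0.032). Acat2, the cytosolic thiolase gene, had 94.6, 133 and 120.3 CPM in WT libraries and 85.03, 82.7 and 27.6 CPM in sST2-KO libraries, without overlap, and its log2 fold change of -0.83 (SE 0.41) had an adjusted p of 0.183 by edgeR. Acat2 overlaps Tcp1 on the opposite strand and has the near copy Acat3 at a distance of 1879 bp on its own strand. Acat3 had a log2 fold change of 0.19 and Tcp1 one of -0.04, and reads shared among these genes could not be set apart. Mvk, the mevalonate kinase gene, had a log2 fold change of -0.25 with an adjusted p of 0.545 by edgeR.

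Pmvk and Mvd encode the 2 enzymes that follow each other after mevalonate kinase, phosphomevalonate kinase and diphosphomevalonate decarboxylase, and they moved in opposite directions. Pmvk, at chr3:89361758-89376323 of GRCm39 on the plus strand, had 44.0, 36.6 and 71.5 CPM in WT 1 to 3 and 16.4, 21.2 and 23.996 CPM in sST2-KO 1 to 3. All 3 sST2-KO libraries were below the lowest WT library, and WT 3 was the highest. The level fell from 50.7 ± 18.4 to 20.5 ± 3.86 CPM (SD, n = 3 each), a log2 fold change of -1.30 (SE 0.29, 95% confidence interval -1.98 to -0.63, adjusted p = 0.0243 by edgeR). The adjusted p rose to 0.0815 without WT 3, where the log2 fold change was -0.98, to 0.0536 without sST2-KO 1 and to 0.0542 without sST2-KO 2. Mvd, at chr8:123160336-123170324 on the minus strand, had 4.01, 6.41 and 4.07 CPM in WT libraries and 13.8, 10.1 and 27.1 CPM in sST2-KO libraries. All sST2-KO libraries were above all WT libraries, and sST2-KO 3 was the highest by far. The level rose from 4.83 ± 1.37 to 16.98 ± 8.92 CPM (SD, n = 3 each), a log2 fold change of 1.81 (SE 0.42, 95% confidence interval 0.83 to 2.79, adjusted p = 0.0274 by edgeR). Without sST2-KO 3 it was 1.30 (adjusted p = 0.0541), and the adjusted p was 0.07, 0.0564 and 0.110 without WT 1, 2 and 3. The ratio of Mvd to Pmvk CPM within a library was 0.0911, 0.175 and 0.0569 in WT BAT and 0.843, 0.475 and 1.13 in sST2-KO BAT, which restates that each gene separated the groups on its own.

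The region around Mvd holds other genes that were higher in the same libraries. Cyba, which encodes the p22phox subunit of the phagocyte NADPH oxidase, lies 629 bp away on the same strand, downstream of Mvd. It had 39.2, 41.0 and 30.2 CPM in WT 1 to 3 and 69.9, 85.3 and 240.4 CPM in sST2-KO 1 to 3, a log2 fold change of 1.84 (SE 0.47, adjusted p = 0.0344 by edgeR). As with Mvd, sST2-KO 3 was the highest library, and it was also the library with the highest macrophage marker sum. The noncoding gene 9330133O14Rik, 40 bp away on the opposite strand, had a log2 fold change of 1.53 with an adjusted p of 0.0243 by edgeR. Whether reads from Cyba were counted on Mvd, and the part of the macrophage genes, was not tested.

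**Figure D2:**
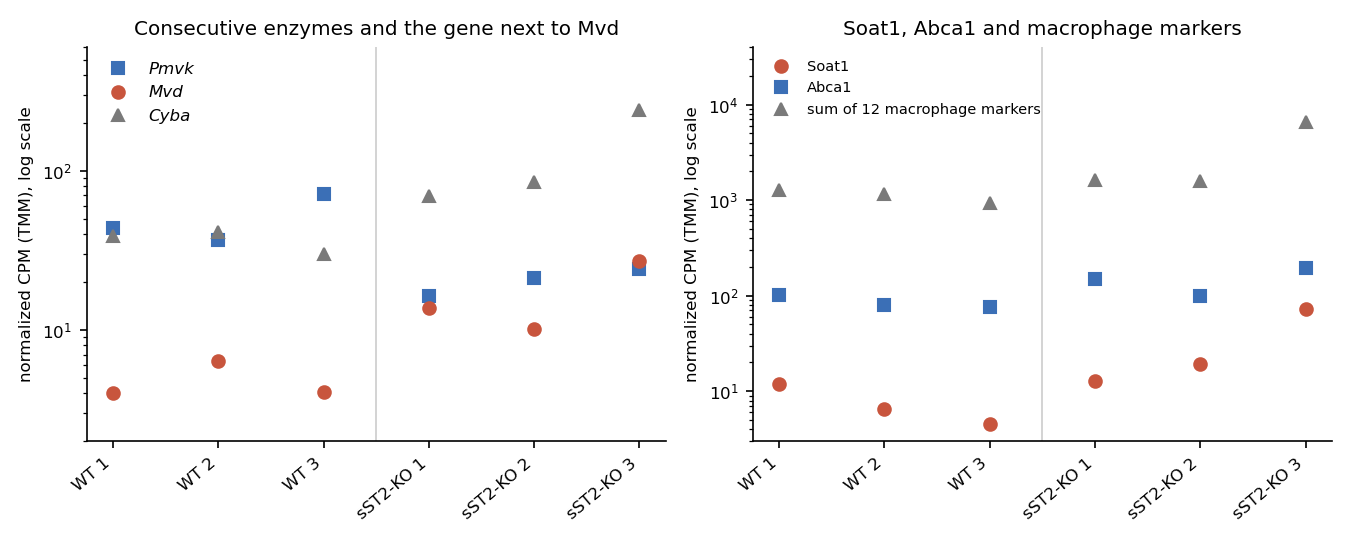
CPM in each of the 6 libraries on log axes, for Pmvk, Mvd and the adjacent gene Cyba (left) and for Soat1, Abca1 and the summed 12 macrophage markers (right). In the left panel Pmvk stands above Mvd in all WT libraries and the 2 genes come close in sST2-KO libraries, and in the right panel sST2-KO 3 is the highest library for every gene and sum.

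Idi1, the isopentenyl diphosphate isomerase gene, had 5.22, 3.58 and 4.32 CPM in WT libraries and 3.62, 4.87 and 3.06 CPM in sST2-KO libraries. The groups overlapped widely, with a log2 fold change of -0.19 (95% confidence interval -0.93 to 0.55, adjusted p = 0.706 by edgeR). Fdps, the farnesyl diphosphate synthase gene, had a log2 fold change of -0.20 with an adjusted p of 0.529, and Fdft1, the squalene synthase gene, one of -0.34 (adjusted p = 0.459 by edgeR). Ctsb, which overlaps Fdft1, had a log2 fold change of 0.13 (adjusted p = 0.793 by edgeR). Sqle, which encodes squalene epoxidase, a rate-limiting enzyme of the sterol branch, had 7.28, 6.69 and 8.26 CPM in WT libraries and 8.92, 10.6 and 7.31 CPM in sST2-KO libraries, a log2 fold change of 0.27 (95% confidence interval -0.32 to 0.86, adjusted p = 0.484 by edgeR). The intervals of Idi1 and Sqle leave room for changes in either direction.

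Lss encodes lanosterol synthase, which folds squalene epoxide into the sterol ring, and lies at chr10:76367298-76392976 on the plus strand. It overlaps Gm15343 on the opposite strand, and reads shared between them could not be set apart. Lss had 18.9, 36.2 and 30.6 CPM in WT 1 to 3 and 16.9, 12.7 and 8.39 CPM in sST2-KO 1 to 3. The highest sST2-KO library lay just below the lowest WT library. The level fell from 28.6 ± 8.80 to 12.7 ± 4.27 CPM (SD, n = 3 each), a log2 fold change of -1.17 (SE 0.34, adjusted p = 0.0488 by edgeR), which is close to the threshold. It was no longer called with total counts (adjusted p = 0.0859) or without WT 2 (0.142), WT 3 (0.151), sST2-KO 2 (0.0992) or sST2-KO 3 (0.103), where the log2 fold changes ran from -1.19 to -0.89.

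Among the 8 genes from lanosterol to cholesterol, Tm7sf2, a sterol C14-reductase gene at chr19:6112851-6118403 on the minus strand, was called. It had 6.16, 7.07 and 9.49 CPM in WT libraries and 3.35, 3.32 and 3.75 CPM in sST2-KO libraries. The sST2-KO libraries lay close together and below all WT libraries, with a fall from 7.57 ± 1.72 to 3.47 ± 0.242 CPM (SD, n = 3 each) and a log2 fold change of -1.12 (SE 0.29, adjusted p = 0.0349 by edgeR). The call rested on all libraries but WT 1, since leaving out any of the other 5 gave an adjusted p of 0.0701 to 0.140 and log2 fold changes of -1.18 to -0.93, and it was also lost with total counts (0.0733) and without an expression filter (0.0578). Tm7sf2 shares 532 bp with Vps51 on the same strand, which had a log2 fold change of -0.41 with an adjusted p of 0.207. The other 7 genes, Cyp51, Msmo1, Nsdhl, Hsd17b7, Ebp, Sc5d and Dhcr7, ranged from -0.60 for Dhcr7, which makes the last conversion to cholesterol, to 0.32 for Msmo1, the C4-methyl oxidase gene. None of these 7 was called, and all 7 had overlapping groups.

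**Figure D3:**
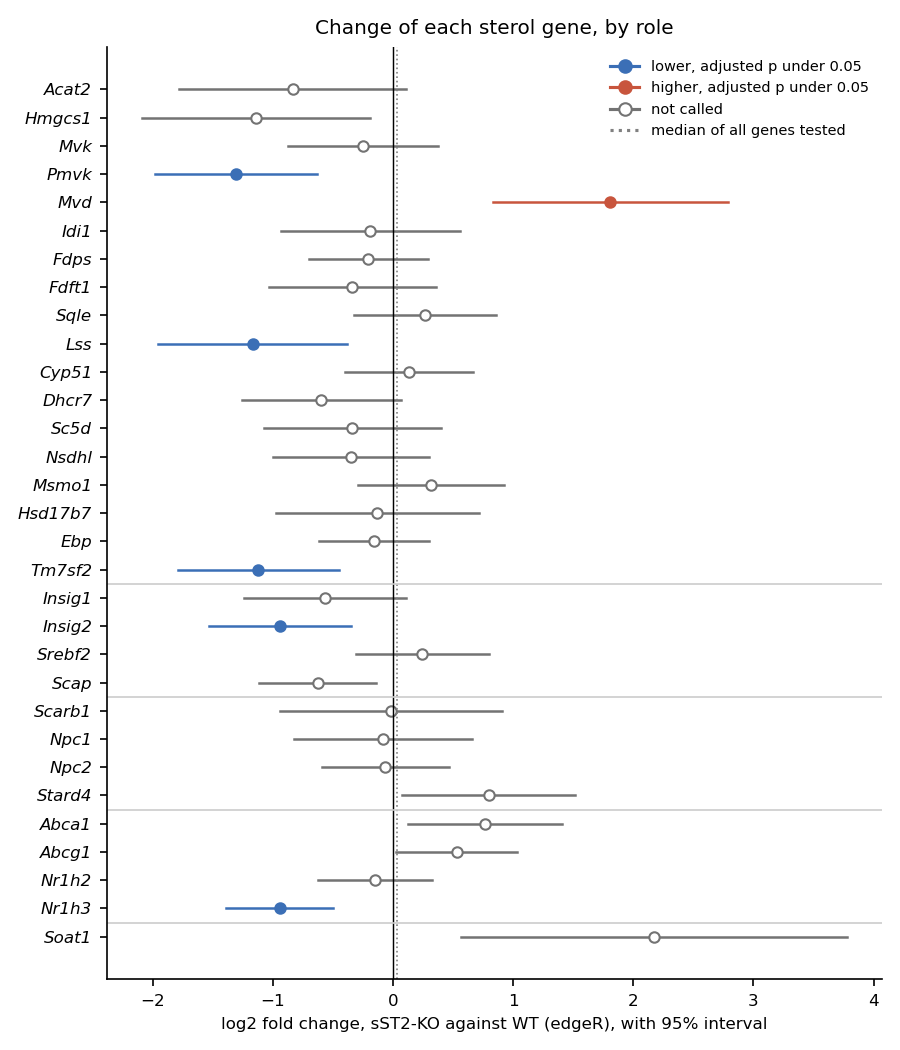
Log2 fold change of sST2-KO over WT (x axis) for each of the 31 sterol genes, ordered by role, with the 95% confidence interval of the edgeR fit as a horizontal line. Mvd is the called gene to the right of 0, Pmvk, Lss, Tm7sf2, Insig2 and Nr1h3 are those to the left, and the interval of Soat1 is the widest.

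Of the 4 genes of SREBP2 control, Insig2 was called lower, 3 of the 4 had negative log2 fold changes, and the median was -0.60. Insig2, at chr1:121181760-121260400 on the minus strand, had 36.9, 66.3 and 44.3 CPM in WT 1 to 3 and 29.8, 23.97 and 23.1 CPM in sST2-KO 1 to 3. All sST2-KO libraries lay below all WT libraries. The log2 fold change was -0.94 (SE 0.25, 95% confidence interval -1.53 to -0.35, adjusted p = 0.0399 by edgeR). Without WT 2, the library with the liver genes, it was -0.66 (adjusted p = 0.105), and the call was also lost with total counts (0.101) and without WT 3 (0.107) or sST2-KO 1 (0.0521), 2 (0.0957) or 3 (0.101). Its relative Insig1, itself a target of SREBP2, had 78.3, 99.8 and 84.3 CPM in WT libraries and 41.0, 86.3 and 50.5 CPM in sST2-KO libraries. As for Hmgcs1, sST2-KO 2 stood within the WT range and the other sST2-KO libraries stood below. The log2 fold change of Insig1 was -0.56 (95% confidence interval -1.24 to 0.11, adjusted p = 0.204 by edgeR) and passed the threshold without sST2-KO 2 (-0.96, adjusted p = 0.0425).

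Srebf2, which encodes SREBP2, had 36.5, 50.3 and 44.4 CPM in WT libraries and 40.4, 67.5 and 47.5 CPM in sST2-KO libraries. The groups overlapped, with a log2 fold change of 0.24 (95% confidence interval -0.31 to 0.80, adjusted p = 0.499 by edgeR). Scap had 48.0, 72.7 and 68.3 CPM in WT libraries and 40.004, 45.9 and 36.4 CPM in sST2-KO libraries, which lay below all WT libraries. Its log2 fold change was -0.63 (adjusted p = 0.0725 by edgeR), and it was called without WT 1 (-0.79, adjusted p = 0.0386). Scap overlaps Ptpn23 on the opposite strand, which had a log2 fold change of -0.07 (adjusted p = 0.884 by edgeR). WT 2 was the highest WT library for all 4 control genes and for 15 of the 31 members.

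None of the 4 genes of uptake and intracellular transport was called by edgeR or by DESeq2, their median was -0.04, and 1 of them, Stard4, had an unadjusted p under 0.05. Scarb1, the gene of the receptor SR-B1 that takes cholesteryl ester from HDL, had 84.3, 224 and 87.4 CPM in WT 1 to 3 and 108, 150.0 and 134 CPM in sST2-KO 1 to 3. WT 2 stood far above the other WT libraries, and the sST2-KO libraries lay between. With all libraries the log2 fold change was -0.02 (95% confidence interval -0.94 to 0.90, adjusted p = 0.981 by edgeR), and without WT 2 it was 0.60 (adjusted p = 0.154). Scarb1 is strongly expressed in liver, and WT 2 held the liver genes, but the part of liver RNA in this value was not tested.

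Npc2 had 572, 664 and 724 CPM in WT libraries and 558, 693 and 621 CPM in sST2-KO libraries, and its log2 fold change was -0.07 (95% confidence interval -0.59 to 0.46, adjusted p = 0.860 by edgeR). Npc2 overlaps Isca2 on the opposite strand, which had a log2 fold change of -0.76 (adjusted p = 0.027 by edgeR). Reads shared between them could not be set apart. Npc1, which moves cholesterol out of late endosomes together with NPC2, had 56.8, 48.6 and 76.8 CPM in WT libraries and 70.0, 33.1 and 68.6 CPM in sST2-KO libraries. The lowest and the second highest of the 6 values were both sST2-KO libraries, and the log2 fold change was -0.08 (95% confidence interval -0.82 to 0.66, adjusted p = 0.875 by edgeR). Stard4, the gene of a soluble sterol carrier, had 7.84, 4.24 and 4.68 CPM in WT libraries and 8.64, 10.6 and 10.1 CPM in sST2-KO libraries. Every sST2-KO library was above every WT library, but the log2 fold change of 0.80 (SE 0.31) had an adjusted p of 0.107 by edgeR, and it was called without WT 1 (1.12, adjusted p = 0.0451).

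The efflux transporter genes Abca1 and Abcg1, whose products load cholesterol onto apolipoprotein A-I and onto HDL particles, had positive log2 fold changes but were not called. Abca1 had 102, 80.7 and 76.2 CPM in WT 1 to 3 and 148, 99.1 and 194 CPM in sST2-KO 1 to 3. sST2-KO 2 lay just below WT 1, and the other sST2-KO libraries lay above all WT libraries. The log2 fold change was 0.77 (SE 0.28, 95% confidence interval 0.13 to 1.41, adjusted p = 0.0873 by edgeR) and passed the threshold without sST2-KO 2 (0.97, adjusted p = 0.0488). Abcg1 had 62.7, 56.9 and 78.7 CPM in WT libraries and 103, 74.8 and 108 CPM in sST2-KO libraries, where again sST2-KO 2 fell inside the WT range. Its log2 fold change was 0.53 (SE 0.22, 95% confidence interval 0.02 to 1.04, adjusted p = 0.124 by edgeR), and it was called with total counts (0.81, adjusted p = 0.0412).

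The LXR genes did not follow the transporters. Nr1h3, at chr2:91014394-91033417 on the minus strand, had 84.0, 96.1 and 117 CPM in WT libraries and 55.3, 45.7 and 53.3 CPM in sST2-KO libraries. The sST2-KO libraries lay within 10 CPM of each other and well below every WT library. The level fell from 98.9 ± 16.6 to 51.4 ± 5.09 CPM (SD, n = 3 each), a log2 fold change of -0.94 (SE 0.19, 95% confidence interval -1.39 to -0.50, adjusted p = 0.0195 by edgeR), the lowest adjusted p of the 31 members. It rose to 0.0577 without WT 2, 0.0829 without WT 3 and 0.0516 without sST2-KO 2, with log2 fold changes of -0.97, -0.81 and -0.88. Nr1h3 overlaps Acp2 on the opposite strand, which had a log2 fold change of 0.40 with an adjusted p of 0.401 by edgeR. It lies 25 bp from Madd on its own strand, which had one of 0.68 (adjusted p = 0.0592 by edgeR). Whether reads were shared among these genes was not tested. Nr1h2 had 93.6, 133 and 118 CPM in WT libraries and 102, 117 and 91.3 CPM in sST2-KO libraries, with overlapping groups and a log2 fold change of -0.15 (95% confidence interval -0.62 to 0.33, adjusted p = 0.635 by edgeR). The median over the 4 efflux and LXR genes was 0.19.

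Soat1, which encodes the enzyme that esterifies cholesterol for storage in droplets, had the largest log2 fold change of the members and was not called. It had 11.8, 6.50 and 4.56 CPM in WT 1 to 3 and 12.7, 19.2 and 72.2 CPM in sST2-KO 1 to 3. The groups did not overlap, but sST2-KO 1 was close to WT 1, and sST2-KO 3, with 731 counts, was far above the rest. The log2 fold change was 2.17 (SE 0.69, 95% confidence interval 0.57 to 3.78, adjusted p = 0.0628 by edgeR). It was called without sST2-KO 1 (2.57, adjusted p = 0.0382), without an expression filter (adjusted p = 0.0374) and in DESeq2 (adjusted p = 0.00521), and without sST2-KO 3 it was 1.05. Macrophages express Soat1, and sST2-KO 3 was the highest library for each of the 12 macrophage markers among the sST2-KO libraries. Their part in the Soat1 difference was not tested.

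Setting synthesis against efflux, the mean log2(CPM + 0.5) of the 18 synthesis genes minus that of Abca1 and Abcg1 was -2.24, -1.80 and -1.94 in WT 1 to 3 and -3.04, -2.34 and -3.42 in sST2-KO 1 to 3. The sST2-KO libraries were lower throughout, with sST2-KO 2 only slightly below WT 1. The means were -1.99 ± 0.22 and -2.93 ± 0.55 (SD, n = 3 each), a difference of -0.94 on the log2 scale. The LXR genes Nr1h2 and Nr1h3 are not part of this score. With all 4 efflux and LXR genes, the synthesis median log2 fold change minus theirs was -0.48. As a plain ratio, the summed CPM of the synthesis genes was 3.26, 5.30 and 4.49 times that of the 2 transporters in WT BAT and 1.87, 2.87 and 1.10 times in sST2-KO BAT. Being a ratio within a library, the latter does not depend on the scaling between libraries. The synthesis sum includes Acat2 and Fdft1, whose reads could not be set apart from those of overlapping genes. No test was made of these scores, because the genes were chosen with results of these data known. Among the sST2-KO libraries, sST2-KO 3 was farthest from WT and sST2-KO 2 nearest. The macrophage marker sum was highest in sST2-KO 3, at 6516 CPM, and nearly equal in sST2-KO 1 and sST2-KO 2, at 1609 and 1566 CPM. The brown adipocyte sum was highest in sST2-KO 2, at 1577 CPM against 366 and 303 CPM in sST2-KO 1 and sST2-KO 3. The part of either cell type was not tested.

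**Figure D4:**
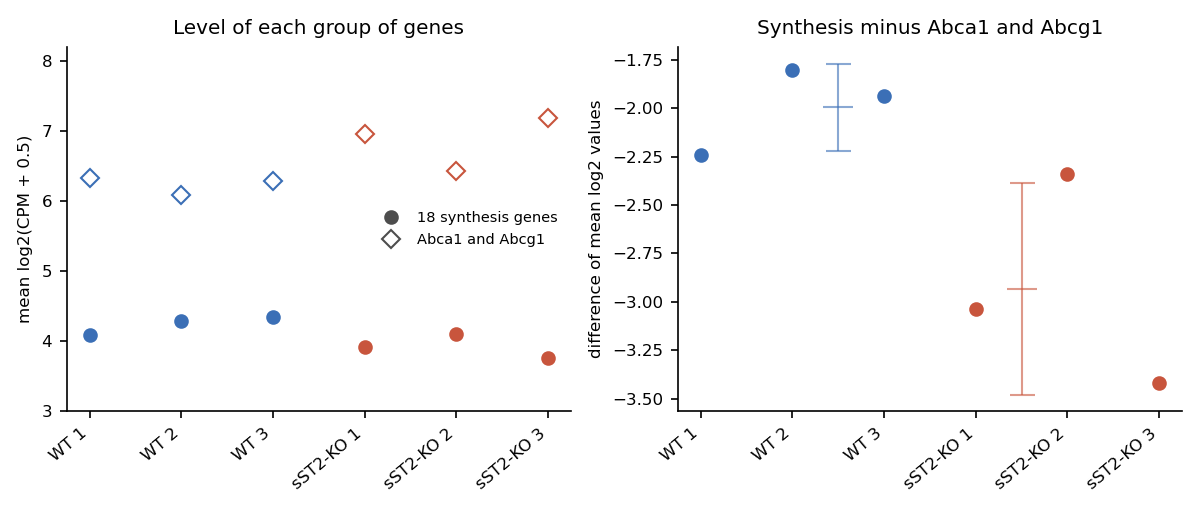
Mean log2(CPM + 0.5) of the 18 synthesis genes and of the efflux transporter genes Abca1 and Abcg1 in each library (left), and their difference per library with the mean and SD of each group (right). The difference lies between -2.24 and -1.80 in WT libraries and between -3.42 and -2.34 in sST2-KO libraries.

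A further 23 genes of sterol handling that are not among the 31 were taken from a list written beside them. All 23 were tested, 4 were called higher, 2 were called lower, and the median was -5.8e-05 on the log2 scale. Over all genes tested, 10.5% were called higher and 9.10% lower, so the share called lower was near the background and the share called higher above it. With a fold change above 2, 2 were higher and 2 lower, beside 9.04% and 7.10% of all genes, so both shares were then near the background. Ch25h, which encodes cholesterol 25-hydroxylase, the source of an oxysterol made by activated macrophages, rose the most. It had 4.01, 4.62 and 2.47 CPM in WT 1 to 3 and 14.8, 60.0 and 28.3 CPM in sST2-KO 1 to 3, a log2 fold change of 3.20 (SE 0.54, adjusted p = 0.015 by edgeR). All sST2-KO libraries were above all WT libraries, and here sST2-KO 2 and not sST2-KO 3 was the highest. Without WT 3 the adjusted p was 0.0669. Cyp27a1, the sterol 27-hydroxylase gene, fell from 80.2 ± 22.6 to 32.3 ± 11.2 CPM (SD, n = 3 each; log2 fold change -1.31, adjusted p = 0.0293), with an adjusted p of 0.065 to 0.104 without WT 2, WT 3, sST2-KO 2 or sST2-KO 3. The messages of Ch25h and Cyp27a1 thus changed in opposite directions.

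Of the other called genes, Lbr rose by 1.00 on the log2 scale (adjusted p = 0.0238 by edgeR). It encodes the lamin B receptor, which is a sterol C14-reductase like TM7SF2, so that the genes of these enzymes differed in direction. Erlin1, which encodes a subunit of the complex that marks sterol-regulated proteins for degradation, rose by 0.66 (adjusted p = 0.0475 by edgeR). Gramd1a, a gene of a sterol carrier, rose by 0.64 (adjusted p = 0.0482 by edgeR). Gramd1b, the related carrier gene, had 129, 176 and 188 CPM in WT libraries and 79.4, 72.5 and 62.7 CPM in sST2-KO libraries, a log2 fold change of -1.20 (SE 0.21, adjusted p = 0.0156 by edgeR). With each library left out in turn these calls were also lost. Erlin1 and Gramd1a were not called in any of the 6 fits (adjusted p 0.06 to 0.186), Lbr was not called without WT 2, WT 3, sST2-KO 2 or sST2-KO 3 (0.0589 to 0.104), and Gramd1b was not called without WT 2 (0.0506) or WT 3 (0.0679).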

How the data were processed

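The authors prepared poly-A libraries from BAT of 3 WT and 3 sST2-KO mice, checked reads with FastQC 0.12.1 and aligned them to mm39 with HISAT2 2.2.1 (versions per the submitters' processing notes). They counted reads per gene with htseq-count and deposited raw counts per gene symbol without normalization. The annotation and the strand setting of the counting are not given in the sources used here, so overlapping genes may share reads. This also applies to Hmgcs1, Cyp51 and Nsdhl, which overlap Nim1k, Akap9 and Cetn2 on the opposite strand. Libraries were assigned to groups by their titles, and 0 columns of per-sample values were unused.

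Analysis of the counts used edgeR 4.0.16 in R 4.3.3 (filterByExpr, TMM, glmQLFit, glmQLFTest, Benjamini-Hochberg over 14542 genes, no covariate), and 11377 of the 35976 rows held no count. The common biological coefficient of variation was 0.325. Standard errors and 95% intervals derive from the F statistic. Levels per kilobase use the canonical transcript of GENCODE on GRCm39, and coordinates are of that build. The steps were tested on simulated data. Alternatives were a fold change above 2, DESeq2 1.42.0, scaling by total counts or RLE factors, removal of the 50 most abundant genes, robust estimation, a minimum of 10 counts per library or no minimum, leaving out each library, and the replicate number as a block.

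The members and lists were chosen with earlier results of these data known. Per-library values are given for members with an adjusted p under 0.05, those highest per length, and 12 others fixed by name, of which some coincide. Values of Acat2, Scap and Stard4 were added because their groups did not overlap. Of the other sterol genes, those called are named. The results of 1 further gene are not reported here. Cyba and other neighbors were chosen after their values were seen. Libraries of a group differed by a chi-square per degree of freedom of 36.6 to 104, so none was a copy. p values measure the spread between these libraries, 1 per mouse as the study's methods describe them.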

Additional observations from a re-analysis of the deposited data

How the results depend on the processing

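With 1 member called higher and 5 lower, the counts were 1 and 3 with a fold change above 2, 2 and 6 in DESeq2, 2 and 4 without a filter and 2 and 2 with total counts. Over all genes, the shares called higher and lower were 11.5% and 10.3% in DESeq2, 6.59% and 5.36% without a filter and 15% and 6.13% with total counts. For the other sterol genes, with 4 higher and 2 lower, they were 2 and 2 with a fold change above 2, 5 and 4 in DESeq2, 2 and 2 with RLE factors or without a filter, and 5 and 2 with total counts. With each library left out in turn, 0 to 2 members were higher and 0 to 6 lower, and 0 to 3 other sterol genes were higher and 0 to 3 lower. Without WT 3 no sterol gene was called by edgeR, when 36 genes were called higher and 22 lower in all and 8 members had an unadjusted p under 0.05. RLE factors, at least 10 counts, robust estimation and removal of the 50 most abundant genes left the member counts at 1 and 5.

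The replicate block, with the shared numbers as pairs, called 0 members and 0 other sterol genes in either direction and 0 genes of all tested in edgeR, while 4623 genes and 11 members had an unadjusted p under 0.05. The numbers were not shown to pair the mice, since deviations of same-numbered libraries correlated at -0.06, 0.21 and -0.31.

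With total counts, which moved the all-gene median from 0.03 to 0.29, the median was -0.025 for synthesis, 0.46 for efflux and LXR and 0.25 for other sterol genes. The synthesis median minus that of the 4 efflux and LXR genes, -0.48, was -0.49 with total counts and -0.47 with the block. It was -0.59 to -0.36 over the 6 fits without a library, in which the other sterol median ran from -0.058 to 0.14. Genes that changed sign were uncalled throughout. With total counts these were Mvk (0.016), Idi1 (0.056), Fdps (0.057), Hsd17b7 (0.13), Ebp (0.11), Scarb1 (0.23), Npc1 (0.21), Npc2 (0.20) and Nr1h2 (0.11). Scarb1 was 0.0097 with at least 10 counts and 0.13 with the block. Over the 6 fits without a library, sign changes fell within the ranges of -0.40 to 0.18 for Hsd17b7 (positive without WT 2 at 0.18 and sST2-KO 1 at 0.00047), -0.26 to 0.60 for Scarb1 (positive without the same libraries, at 0.60 and 0.10), -0.26 to 0.17 for Npc1 (positive without WT 3 at 0.12 and sST2-KO 2), -0.17 to 0.0093 for Npc2 (positive without WT 3 and, at 0.0089, sST2-KO 1), -0.058 to 0.24 for Cyp51 and -0.013 to 0.40 for Srebf2 (both negative without sST2-KO 2). The causes of these shifts were not tested. At the depth of these libraries, genes such as Tm7sf2, with 28 to 77 counts per library, carry more counting error than Npc2, with 5839 to 8011.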

Other observations

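The INSIG genes kept no fixed ratio. Insig1 CPM divided by Insig2 CPM was 2.12, 1.504 and 1.91 in WT 1 to 3 and 1.37, 3.599 and 2.18 in sST2-KO 1 to 3, so that the sST2-KO libraries reached both below and above the WT range. sST2-KO 2 was the highest sST2-KO library for 17 of the 31 members, against 7 each for sST2-KO 1 and sST2-KO 3. Markers of immune and dividing cells also separated the groups. All 7 T cell markers tested were called higher in sST2-KO BAT, with summed levels of 15.7 to 17.2 CPM in WT and 112 to 141 CPM in sST2-KO libraries, as were 3 of 7 neutrophil markers and all 8 proliferation markers, whose sums were 24.3 to 48.7 CPM and 112 to 200.4 CPM. Among 7 endothelial markers 1 was called higher and 1 lower. Their part in the sterol gene differences was not tested.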
